A study of Mus musculus with 9 samples.

Results

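The 10 genes described here encode the proteins that release calcium from the sarcoplasmic reticulum of the heart muscle cell and take it back up. They are the release channels Ryr2 and Ryr3, the calcium-storing proteins Casq2 and Casq1, the anchoring proteins Trdn and Jph2, the pump Atp2a2 with its small inhibitors Pln and Sln, and the exchanger Slc8a1. They were chosen by name from the raw count table, in which Ensembl identifiers were matched to symbols. All 10 were found among the 38293 genes of the table, and all 10 had enough reads to be among the 15318 genes tested. RNA of whole ventricles was sequenced in 9 mouse libraries, all at postnatal day 7 (P7). The 5 control libraries came from Arid1a f/f pups, in which both copies of Arid1a carry loxP sites and no Cre is present. The 4 cKO libraries came from aMHC-Cre;Arid1a f/f littermates, in which the alpha myosin heavy chain promoter drives Cre in cardiomyocytes so that Arid1a is lost there. Arid1a encodes a part of the chromatin remodelling complex SWI/SNF, and both groups carry the loxP sites on a C57B/6 J background. Because the controls have no Cre, presence of Cre and loss of Arid1a cannot be told apart. Pups of both sexes were used, and ventricles were not separated into cell types, so that fewer cardiomyocytes and less of an RNA per cardiomyocyte cannot be told apart either.

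In each heartbeat calcium entering through the cell membrane opens ryanodine receptors, and the calcium stored in the sarcoplasmic reticulum flows out and starts contraction. Calsequestrin binds calcium inside the store, triadin ties it to the channel, and junctophilin holds the store close to the cell membrane. The pump then returns calcium to the store, held back by phospholamban and sarcolipin, while the sodium-calcium exchanger moves the rest out of the cell. In the adult ventricle Ryr2, Casq2, Atp2a2, Pln and Slc8a1 are the usual forms. Casq1 is the calsequestrin of fast skeletal muscle, Ryr3 is best known from brain, smooth muscle and developing skeletal muscle, and Sln in the mouse heart is largely atrial.

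Levels are CPM, counts divided by the library total in units of 1000000 counts after scaling by the trimmed mean of M-values (TMM). Differences are log2 fold changes of cKO over control with their standard error (SE), from the quasi-likelihood F test of edgeR. Adjusted p-values are Benjamini-Hochberg values over all 15318 genes, a gene passes at an adjusted p under 0.05, and a gene is called when its fold change is also over 1.5 in either direction. Total counts lay between 31011055 and 40073801. The targeted gene Arid1a stood at 142, 128, 133, 147 and 148 CPM in the controls (replicates 1 to 5) and at 108, 113, 100.3 and 104.0 CPM in the cKO libraries (replicates 1 to 4). Its groups did not overlap, and cKO differed from control by -0.39 on the log2 scale (SE 0.06, edgeR adjusted p = 0.00132), and by -0.33 without a pass in the low set described next (adjusted p = 0.0822). The libraries also fell into 2 sets that cross the groups. Rps3a3 lay between 0.345 and 0.521 CPM in control replicates 1 and 2 and cKO replicates 1 to 3, and between 99.7 and 112 CPM in control replicates 3 to 5 and cKO replicate 4. The source of these sets is not given in the labels, so changes within each set are given beside the members that passed. The high set holds only 1 cKO library, and its values have no test.

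Promoter sequences of 3 genes are shown because their transcripts carry the results that follow: the calsequestrin pair moved in opposite directions and phospholamban was the most abundant transcript of the list per length. The sequences are RefSeq's for GRCm38.p6, the 250 bases before the annotated start, written 5′ to 3′ on the strand of the gene. Of the 10 genes, 6 had an entry (Casq1, Casq2, Jph2, Pln, Ryr2 and Slc8a1). Ryr3, Trdn, Atp2a2 and Sln had none. Capitals mark matches on either strand to the MEF2 consensus or to GATAA, the core of a GATA site. MEF2 and GATA factors act on many heart muscle genes.
Casq1, chr1:172219896-172220145, minus strand: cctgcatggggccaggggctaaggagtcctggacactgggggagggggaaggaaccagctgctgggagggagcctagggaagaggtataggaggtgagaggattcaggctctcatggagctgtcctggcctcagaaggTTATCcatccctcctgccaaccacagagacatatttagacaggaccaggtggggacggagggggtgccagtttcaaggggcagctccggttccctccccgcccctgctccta
Casq2, chr3:102086165-102086414, plus strand: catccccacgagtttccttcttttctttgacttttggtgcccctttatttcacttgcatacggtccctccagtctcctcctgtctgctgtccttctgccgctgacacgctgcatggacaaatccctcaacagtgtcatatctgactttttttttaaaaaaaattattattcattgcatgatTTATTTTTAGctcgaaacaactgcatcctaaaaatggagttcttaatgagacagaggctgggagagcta
Pln, chr10:53337436-53337685, plus strand: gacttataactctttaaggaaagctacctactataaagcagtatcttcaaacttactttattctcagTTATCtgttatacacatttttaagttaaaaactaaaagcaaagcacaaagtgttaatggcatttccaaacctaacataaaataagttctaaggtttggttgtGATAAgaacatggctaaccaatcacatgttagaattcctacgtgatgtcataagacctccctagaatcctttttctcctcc
In the Casq2 promoter the only match was 1 MEF2 consensus starting 69 bases before the gene's start. In the Casq1 promoter it was 1 GATAA on the opposite strand, starting at 112 bases before the start. Pln had GATAA at 183 bases (opposite strand) and 81 bases before the start, with no MEF2 match. Distances count from the RefSeq start, which for Pln lies inside the gene as placed below, whose first base is 53337667. Slc8a1 also held GATAA in its window, and Ryr2 and Jph2 held neither motif. CATTCC, the core of a TEAD site, was in none of the 6. None of the marked matches overlapped another. Among 32851 RefSeq promoters of the same length, 2.92% held the MEF2 consensus, 22.6% held GATAA and 12.6% held CATTCC. These are matches of letters and not measured binding.

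The 10 transcripts differed widely in level. Per kb of exons, which allows levels to be compared between genes, the controls were led by Pln at 2127 ± 142 CPM per kb (SD, n = 5) and Atp2a2 at 1458 ± 93.0. Casq2 followed at 434 ± 18.9 CPM per kb, Jph2 at 85.2 ± 10.5 and Ryr2 at 49.3 ± 4.04. Below them came Trdn at 20.2 ± 1.26, Casq1 at 13.4 ± 3.14, Slc8a1 at 8.52 ± 1.72, Sln at 4.34 ± 2.45 and Ryr3 at 0.0789 ± 0.0287 CPM per kb. The pump inhibitor Pln was therefore present at more counts per kb than the pump itself, and the usual cardiac forms Ryr2 and Casq2 stood far above their relatives Ryr3 and Casq1. Neighbours in this order had separate ranges in the controls, except Casq1 and Slc8a1, and Slc8a1 and Sln, whose ranges overlapped. In the cKO libraries 8 of the 10 genes kept their place by their means, while Casq1 (26.1 ± 6.33 CPM per kb, SD, n = 4) stood sixth and Trdn (20.5 ± 3.03) seventh, with overlapping ranges. The cKO ranges of Sln (0.624 to 4.765 CPM per kb) and Ryr3 (0.175 to 0.763) overlapped as well. Exon length is the union over all annotated isoforms, 28.79 kb for Ryr2 and 9.352 kb for Trdn, so a gene of which mainly a short isoform is made appears lower than it is.

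**Figure D1:**
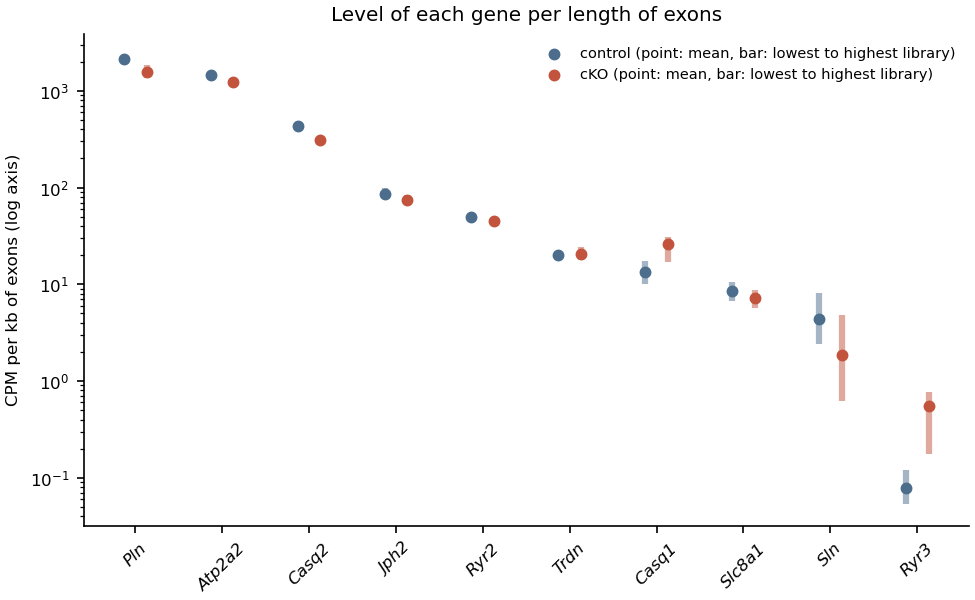
Mean level of each gene in CPM per kb of exons, on a log axis, in the 5 control and the 4 cKO libraries. Points are means and bars run from the lowest to the highest library. Pln and Atp2a2 lead in both groups, Ryr3 has the lowest mean in both, and the Casq1 point is the one that moves past its neighbour Trdn.

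Spread between libraries also differed between the genes. Casq2 was the steadiest transcript in the controls, with a coefficient of variation of 4.35%, and Trdn (6.24%), Atp2a2 (6.38%), Pln (6.69%) and Ryr2 (8.20%) were close to it. Sln (56.6%), Ryr3 (36.4%), Casq1 (23.5%) and Slc8a1 (20.2%) varied most. In the cKO libraries the value was higher for 7 of the 10 genes, among them Casq2 (7.65%), Pln (15.6%), Trdn (14.8%), Ryr3 (49.6%) and Sln (105.9%), and lower for Ryr2, Jph2 and Slc8a1.

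Of the 10 genes, 5 passed at an adjusted p under 0.05, 2 higher in cKO (Ryr3 and Casq1) and 3 lower (Casq2, Pln and Atp2a2). Over all genes tested 16.3% passed, 8.25% higher and 8.03% lower. With the fold threshold 2 of the 10 were called, both higher, and 0 lower in edgeR and in DESeq2, against 6.72% of all tested genes called in either direction, 4.01% higher and 2.72% lower. The groups did not overlap for 4 of the 10 (Ryr3, Casq2, Pln and Atp2a2), against 16.7% of all tested genes. In edgeR 5 of the 10 had an unadjusted p under 0.05. The sign was negative for 7 genes and positive for 3, and the median log2 fold change of the 10 was -0.22, beside 0.01 for all tested genes. With 10 genes each gene weighs heavily in these shares, and the list is described by them without a test.

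**Figure D2:**
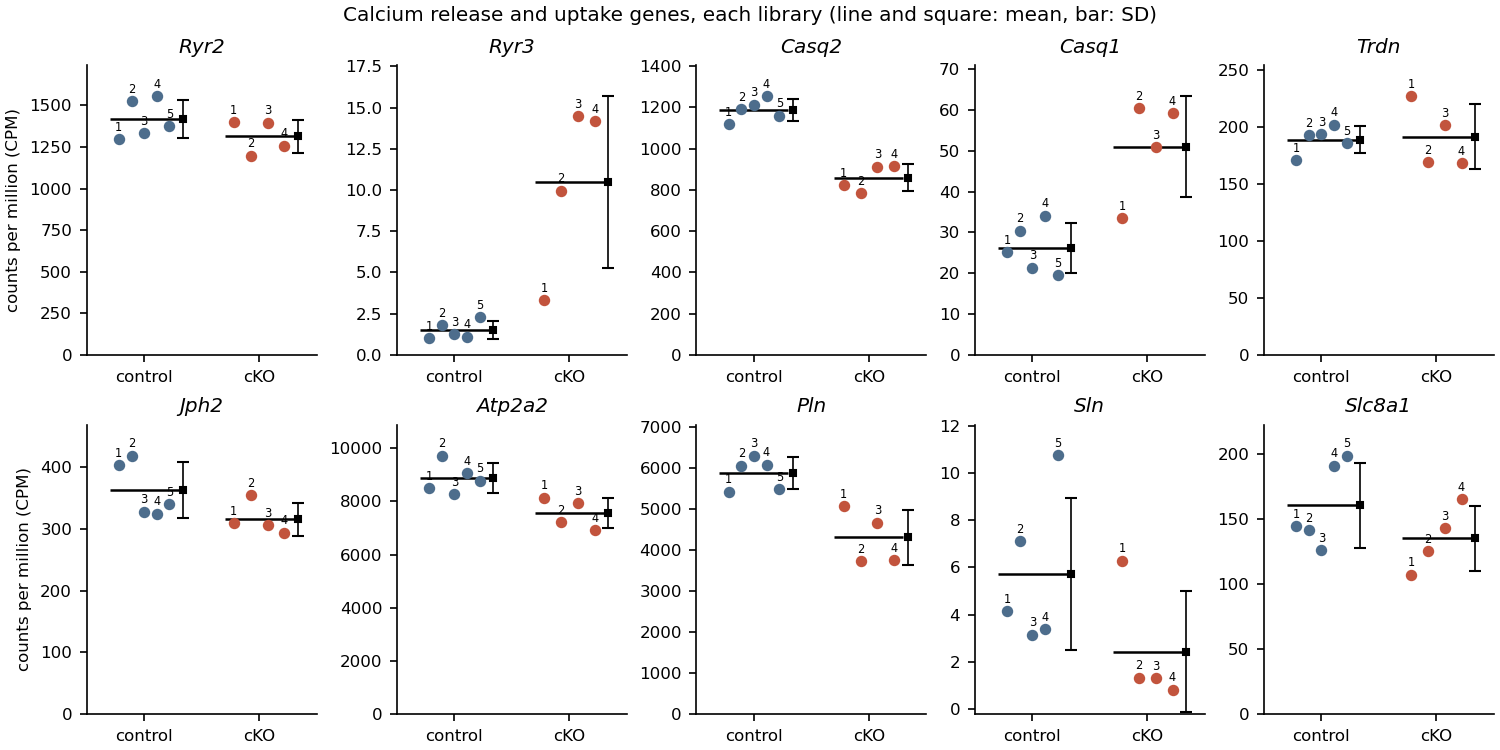
CPM of each gene in each library, with its replicate number. Lines and squares are means and bars are SDs of 5 control and 4 cKO libraries, and each panel has its own linear axis. Ryr3, Casq2, Atp2a2 and Pln have groups that do not overlap, and in the Casq1 panel cKO replicate 1 sits among the controls.

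The release channel of the heart, Ryr2, was compared first (ENSMUSG00000021313, GRCm38 chr13:11553102-12106945, minus strand). It was measured at 1299, 1527, 1332, 1555 and 1376 CPM in the controls (replicates 1 to 5) and at 1401, 1197, 1397 and 1258 CPM in the cKO libraries (replicates 1 to 4). The groups overlapped between 1299 and 1401 CPM. Means were 1418 ± 116 (SD, n = 5) and 1313 ± 102 CPM (SD, n = 4), and the difference did not pass in edgeR (log2 fold change -0.11, SE 0.08, adjusted p = 0.369). It did not pass under any of the 20 alternatives run either, where it lay between -0.14 and -0.07.

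Its relative Ryr3 (ENSMUSG00000057378, chr2:112631355-113217096, minus strand) rose. It was measured at 1.02, 1.82, 1.25, 1.10 and 2.29 CPM in the controls (replicates 1 to 5) and at 3.33, 9.96, 14.5 and 14.2 CPM in the cKO libraries (replicates 1 to 4). Every cKO library lay above every control, cKO replicate 1 only slightly and the other 3 well above. The read counts behind these values were 34 to 71 in the controls and 107 to 586 in the cKO libraries. Means were 1.497 ± 0.545 and 10.5 ± 5.20 CPM, a 7.01-fold difference in edgeR (log2 fold change 2.81, SE 0.42, adjusted p = 0.00146). Within the low set the difference in log2(CPM + 0.5) was 2.16 and within the high set 2.89. Tested in the low set alone, which leaves 2 controls and 3 cKO libraries, it did not pass (adjusted p = 0.116), and it passed under the other 19 of 20 alternatives. Exons of Ryr3 share 916 bases with Aven on the opposite strand, and whether counting used the strand is not given in the sources used here.

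Calsequestrin 2, the storage protein of the heart, was lower in cKO (Casq2, ENSMUSG00000027861, chr3:102086415-102146514, plus strand). Control replicates 1 to 5 held 1118, 1189, 1213, 1253 and 1159 CPM, and cKO replicates 1 to 4 held 821, 784, 912 and 914 CPM. No cKO library reached the lowest control, and both groups were tight. The means of 1186 ± 51.6 and 858 ± 65.6 CPM differed by -0.47 on the log2 scale (SE 0.07, edgeR adjusted p = 0.000534), so that the transcript fell by 27.7%. The difference was -0.46 within the low set and -0.40 within the high set. Casq2 was the only one of the 10 that passed under all 20 alternatives, with a largest adjusted p of 0.0219. It stayed inside the 1.5-fold threshold and so was not called.

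Calsequestrin 1, the form of fast skeletal muscle, was higher in cKO (Casq1, ENSMUSG00000007122, chr1:172209894-172219868, minus strand). Control replicates 1 to 5 held 25.1, 30.4, 21.4, 34.1 and 19.5 CPM, and cKO replicates 1 to 4 held 33.6, 60.3, 50.8 and 59.1 CPM. The last 3 lay above all controls, while cKO replicate 1 lay just under control replicate 4. Means were 26.1 ± 6.13 and 50.9 ± 12.4 CPM, a 1.95-fold difference (log2 fold change 0.97, SE 0.20, adjusted p = 0.00962, edgeR). The difference in log2(CPM + 0.5) was 0.75 within the low set and 1.27 within the high set. It passed under 19 of 20 alternatives and not in the low set alone (adjusted p = 0.123). Casq1 shares 156 exon bases with Gm17224 on the opposite strand.

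Markers of skeletal muscle were read beside Casq1 and Ryr3. Summed over 11 markers they came to between 4.91 and 8.57 CPM in the controls and between 9.03 and 10.4 CPM in cKO. These ranges did not overlap. Only 5 of the 11 had enough reads to be tested and 0 passed in edgeR, although 3 were higher at an unadjusted p under 0.05 (Mylpf, Tnni2 and Tnnt3) and 1 lower (Myh8), and 1 passed in DESeq2 (Tnni2). Pax7 was at 0 in all 9 libraries, and the adult fast myosins Myh1, Myh2 and Myh4 did not exceed 0.579 CPM in any library. Myog, with too few reads to be tested, did not exceed 0.0290 CPM in the controls and lay at 0.0726 to 0.156 CPM in cKO, without overlap. The summed marker level was thus below that of Casq1 alone in all 9 libraries. Smooth muscle markers, 5 in number, came to 1024 to 1340 CPM in the controls and 1134 to 1599 CPM in cKO. Most of these sums was Des, which heart muscle also makes, at 782 ± 77.7 and 1048 ± 157 CPM. Of the 5, Cnn1 and Des passed higher in edgeR, Smtn passed lower, and Tagln did not pass (log2 fold change 0.31, adjusted p = 0.0672). Myh11, the myosin that defines the cell type, stood at 63.6 ± 9.01 and 51.8 ± 9.02 CPM (edgeR adjusted p = 0.139). In DESeq2 4 of the 5 passed, 3 of them higher. The part of these markers in the Ryr3 and Casq1 results was not tested.

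Triadin (Trdn, ENSMUSG00000019787, chr10:33080554-33476709, plus strand) was level between the groups on average. It was measured at 171, 193, 194, 202 and 186 CPM in the controls (replicates 1 to 5) and at 227, 169, 202 and 169 CPM in the cKO libraries (replicates 1 to 4). The cKO libraries lay on both sides of the controls. Means were 189 ± 11.8 and 192 ± 28.3 CPM (log2 fold change 0.02, SE 0.09, adjusted p = 0.909, edgeR), and the sign turned when control replicate 1, cKO replicate 1 or cKO replicate 3 was left out.

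Junctophilin 2 (Jph2, ENSMUSG00000017817, chr2:163336242-163397993, minus strand) stood at 403, 418, 328, 324 and 340 CPM in the controls (replicates 1 to 5) and at 309, 354, 305 and 294 CPM in the cKO libraries (replicates 1 to 4). The groups overlapped through cKO replicate 2, and the 2 controls of the low set were the highest of all libraries. Means were 363 ± 44.6 and 316 ± 26.7 CPM, and the difference did not pass in edgeR (log2 fold change -0.20, SE 0.09, adjusted p = 0.170). It did pass once the fit held a term for the library set (-0.28, adjusted p = 0.0105) and with trends of GC content and length removed (-0.37, adjusted p = 0.00191), and in none of the other 18 alternatives.

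On the uptake side, the pump Atp2a2 (ENSMUSG00000029467, chr5:122453513-122502225, minus strand) stood at 8494, 9724, 8264, 9055 and 8783 CPM in control replicates 1 to 5. The cKO replicates 1 to 4 held 8134, 7224, 7926 and 6930 CPM, all below the lowest control, though cKO replicate 1 only just. Means were 8864 ± 566 and 7553 ± 570 CPM. They differed by -0.23 on the log2 scale (SE 0.07, edgeR adjusted p = 0.0458), so that the transcript fell by 14.8%. This result sat at the threshold, and it passed in 9 of 20 alternatives and in 1 of the 9 fits that leave out a library, with adjusted p between 0.0128 and 0.192. Its direction was the same in all of them, from -0.27 to -0.19, and it was -0.23 within the low set and -0.33 within the high set.

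Phospholamban, the main inhibitor of the pump in the ventricle, was lower in cKO by a wider margin (Pln, ENSMUSG00000038583, chr10:53337667-53345987, plus strand). It was measured at 5420, 6059, 6302, 6076 and 5483 CPM in the controls (replicates 1 to 5) and at 5070, 3734, 4665 and 3752 CPM in the cKO libraries (replicates 1 to 4). All cKO libraries lay below all controls, with cKO replicate 1 nearest to them. The means of 5868 ± 393 and 4305 ± 670 CPM differed by -0.45 on the log2 scale (SE 0.10, edgeR adjusted p = 0.00875), so that the transcript fell by 26.6%. The difference was -0.36 within the low set and -0.66 within the high set, and it passed under all alternatives but the low set alone (adjusted p = 0.162). Pln exons share 141 bases with Cep85l and 1644 bases with Gm47644, both on the opposite strand.

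Sarcolipin, the atrial inhibitor of the same pump, was low in all libraries (Sln, ENSMUSG00000042045, chr9:53850164-53854560, plus strand). It was measured at 4.15, 7.12, 3.16, 3.40 and 10.8 CPM in the controls (replicates 1 to 5) and at 6.28, 1.32, 1.30 and 0.823 CPM in the cKO libraries (replicates 1 to 4). The last 3 lay below all controls, whereas cKO replicate 1 exceeded 3 of the 5. Means were 5.72 ± 3.23 and 2.43 ± 2.58 CPM, and the difference did not pass in edgeR (log2 fold change -1.25, SE 0.67, adjusted p = 0.262). Without cKO replicate 1 it was -2.31 and was called (adjusted p = 0.0083).

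Other atrial markers were read beside Sln. The atrial myosin light chains were highest where Sln was highest in each group: control replicate 5 held 60.5 CPM of Myl4 and 65.8 CPM of Myl7, and cKO replicate 1 held 66.3 CPM of Myl4 and 117 CPM of Myl7. In the other 4 controls Myl4 lay between 28.3 and 47.9 CPM, and in the other 3 cKO libraries between 35.8 and 46.0 CPM. Dkk3 was also highest in these libraries (56.4 and 59.2 CPM), whereas the other atrial markers did not follow Sln in both groups. Nppa was lowest in cKO replicate 1 among the cKO libraries (710.5 CPM, against 1840 to 2430). Kcna5 was lowest in control replicate 5 among the controls (20.9 CPM, against 23.9 to 28.7). Bmp10, a factor of the atrial wall, did not exceed 0.194 CPM in any library. The 8 atrial markers other than Sln summed to 961 to 1180 CPM in the controls and 1918 to 3678 CPM in cKO, and 4 of them passed higher (Nppa, Myl7, Dkk3 and Pam). Nppa, which the stressed and the fetal ventricle also express, made most of that rise, with means of 114 ± 9.18 and 1720 ± 724 CPM. Myl4 did not pass (log2 fold change 0.17, adjusted p = 0.71). The part of atrial tissue in the Sln values was not tested.

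The exchanger Slc8a1 (ENSMUSG00000054640, chr17:81373105-81738377, minus strand), which moves calcium out across the cell membrane, was measured at 144, 141, 126.1, 191 and 199 CPM in the controls (replicates 1 to 5) and at 107, 125, 143 and 165 CPM in the cKO libraries (replicates 1 to 4). The groups overlapped, and in both groups the high values came from libraries of the high set, although control replicate 3 of that set was the lowest control. Means were 160.1 ± 32.3 and 135 ± 24.8 CPM. The difference did not pass in edgeR (log2 fold change -0.25, SE 0.16, adjusted p = 0.333) or in any of the 20 alternatives.

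**Figure D3:**
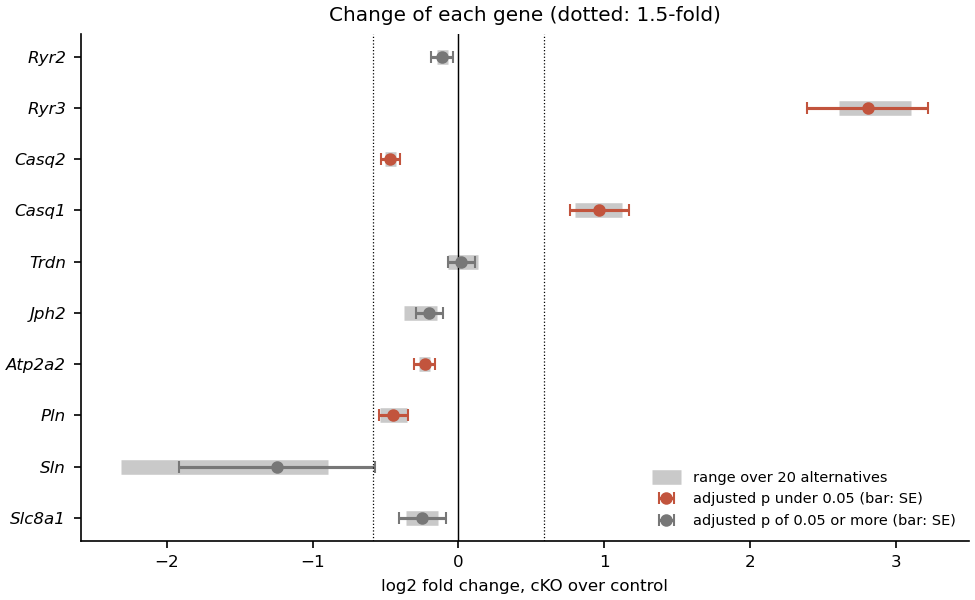
Log2 fold change of each gene, cKO over control, with its SE, and the range over the 20 alternative fits in grey. Dotted lines mark a 1.5-fold change. Ryr3 and Casq1 lie to the right of the dotted line, while Casq2, Pln and Atp2a2 lie between 0 and the dotted line on the left.

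Across the 5 genes that passed, the cKO library nearest to the control mean was cKO replicate 1 for 4 of them (Ryr3, Casq1, Atp2a2 and Pln), and cKO replicate 4 for Casq2. Ventricular cardiomyocyte markers, 9 in number, summed to 47330 to 57630 CPM in the controls and 44060 to 51850 CPM in cKO, so heart muscle was plain in every library. Of these 9, Myl2 passed lower (means 9972 ± 732 and 7391 ± 315 CPM, log2 fold change -0.43, adjusted p = 0.00124) and the other 8 did not pass in edgeR. In DESeq2 Tnni3 passed lower too (-0.31, adjusted p = 0.0347, edgeR adjusted p = 0.0689). In edgeR it did so with a library set term (-0.41, adjusted p = 0.00225) and with a replicate block (-0.36, 0.0173). It also passed with GC and length trends removed (-0.45, 0.000155) and without cKO replicate 2 (-0.40, 0.0216), and in no other alternative. The sign was positive for Actn2 (0.22, edgeR adjusted p = 0.109), Irx4 (0.15, 0.362) and Mb (0.13, 0.418). It was negative for Tnnt2 (-0.23, 0.0861), Myl3 (-0.13, 0.57), Myh6 (-0.12, 0.478) and Ttn (-0.07, 0.437). Fibroblast markers summed to 2796 to 3537 CPM in the controls and 3636 to 4322 CPM in cKO, with 3 of 6 passing higher. The part of the cell type makeup in the falls of Casq2, Pln and Atp2a2 was not tested.

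Ratios of 2 members within a library depend little on how libraries are scaled, except for low genes, where the added 0.5 CPM weighs, and 7 of them were tested between the groups by exact permutation (two-sided, over all ways to assign the labels), with p-values adjusted over the 7. The smallest p this design allows is 0.00794. Because several of these genes had passed singly, the ratios describe the balance within pairs and are no independent evidence.

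Casq1 per kb was 2.35% to 3.82% of Casq2 per kb in the controls and 5.73% to 10.8% in cKO. The groups did not overlap, and the log2 ratio was 1.42 higher in cKO (SE 0.23, exact permutation p = 0.00794, adjusted p = 0.0185). Casq2 thus stayed the far more abundant calsequestrin in every library. Ryr3 per kb was 0.107% to 0.253% of Ryr2 in the controls and 0.360% to 1.71% in cKO, again without overlap, a difference of 2.43 in the log2 ratio (SE 0.47, exact permutation p = 0.00794, adjusted p = 0.0185). With 0.1 or 1 CPM added in place of 0.5 the difference was 2.70 or 2.18. Ryr3 remained a small fraction of ryanodine receptor transcript in all 9 libraries.

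Trdn per kb was 4.47%, 4.74%, 4.68%, 4.71% and 4.68% of Casq2 in control replicates 1 to 5, a narrow range. It was 8.09%, 6.30%, 6.47% and 5.39% in cKO replicates 1 to 4, all above the controls. The log2 ratio was 0.48 higher in cKO (SE 0.11, exact permutation p = 0.00794, adjusted p = 0.0185), so the balance of these partners moved although Trdn itself did not pass. The pump per kb was 59.5% to 72.8% of Pln in the controls and 72.8% to 87.8% in cKO. Those ranges touched, cKO replicate 1 lying just under control replicate 2, and the log2 ratio was 0.23 higher in cKO (SE 0.08, exact permutation p = 0.0159, adjusted p = 0.0278).

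Ryr2 per kb was 3.23% to 3.63% of Atp2a2 in the controls and 3.50% to 3.83% in cKO, a difference of 0.12 in the log2 ratio (SE 0.04, exact permutation p = 0.0318, adjusted p = 0.0444). Sln per Pln was -0.82 on the same scale (SE 0.54, exact permutation p = 0.175, adjusted p = 0.204) and Slc8a1 per Atp2a2 was -0.01 (SE 0.21, exact permutation p = 0.968, adjusted p = 0.968), and neither passed. The Sln/Pln difference was -1.03 or -0.63 with 0.1 or 1 CPM added. When labels were exchanged only between libraries of the same set, where 40 assignments allow no p under 0.025, the first 3 ratios reached that smallest p (adjusted p = 0.0583) and Atp2a2/Pln and Ryr2/Atp2a2 gave an exact permutation p of 0.05 (adjusted p = 0.07), so that none of the 5 passed.

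**Figure D4:**
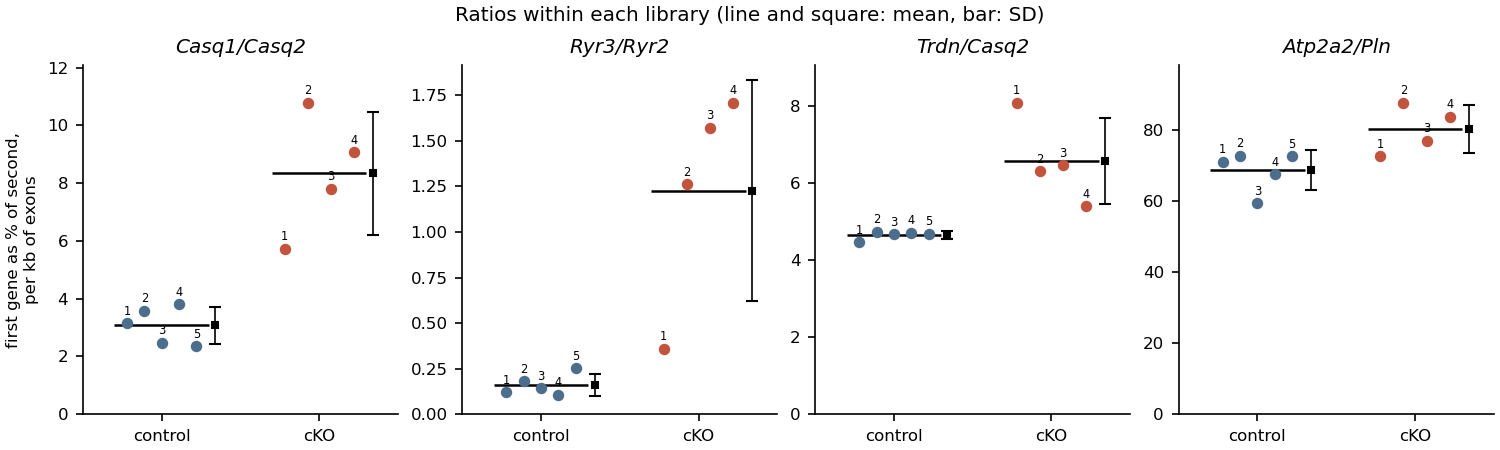
Level of the first gene as a percentage of the second, per kb of exons, in each library with its replicate number, for 4 of the 7 ratios. Lines and squares are means and bars are SDs. Groups do not overlap for Casq1/Casq2, Ryr3/Ryr2 and Trdn/Casq2, and the 5 controls lie within 4.47% to 4.74% for Trdn/Casq2.

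Around the 10 genes, 67 other genes of calcium handling were listed by role. Of these 66 were in the count table and 63 were tested, of which 7 passed higher, 7 passed lower and 49 did not pass in edgeR, beside the 8.25% and 8.03% of all tested genes given above. Their median log2 fold change was 0.00. In DESeq2 17 of them passed, and 21 passed in edgeR with a library set term. Over all genes 1211 and 1166 were called in those fits, against 1030 in the main fit, and the shares that passed in them are not given here. The fold threshold left 3 called higher (Jsrp1, Slc8a2 and Atp2b2) and 1 called lower (Cmya5) in edgeR, beside 4.01% and 2.72% of all tested genes. DESeq2 called Slc8a3 lower as well. In the low set alone 3 of the 63 passed (Cmya5, Prkaca and Pde3a), where 620 of all genes were called. Where the following names a gene other than these 4 and the 2 lowest adjusted p-values of a list without a called gene, it was chosen after its values were seen.

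The 17 partners of the release unit gave 3 higher and 3 lower in edgeR, beside 8.25% and 8.03% of all tested genes, with a median of 0.02. Cmya5 (myospryn), a scaffold of the Z-disc that holds the release unit in place, had the largest fall of the 17, from 226 ± 18.1 to 89.1 ± 8.90 CPM (log2 fold change -1.34, SE 0.08, adjusted p = 9.7e-07, edgeR). Jsrp1, a partner of the skeletal muscle release unit, rose from 0.326 ± 0.0635 to 1.14 ± 0.424 CPM (log2 fold change 1.81, SE 0.31, adjusted p = 0.00214), a low level in both groups. Groups did not overlap for either gene.

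Among the same partners, Hrc, the histidine-rich calcium-binding protein that joins triadin inside the store, was higher (log2 fold change 0.40, adjusted p = 0.0102). Its means were 368 ± 34.8 and 486 ± 56.5 CPM, with overlap between the groups. S100a1, a calcium sensor that acts on the channel and the pump, was higher as well (0.41, adjusted p = 0.0097). Jph1, the junctophilin of skeletal muscle, was lower (-0.54, adjusted p = 0.00185) and so was Camk2d, a kinase of the channel and of phospholamban (-0.40, adjusted p = 0.00147). The other 11 did not pass, among them Asph (0.08, adjusted p = 0.66), the junction protein Srl, the 3 calmodulin genes and the store's counter-ion channels Tmem38a and Tmem38b.

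Of 10 paralogs outside the list of members, 8 were tested. Slc8a2, a sodium-calcium exchanger best known from brain, was called higher at low level, with means of 2.38 ± 0.677 and 4.28 ± 0.441 CPM (log2 fold change 0.85, SE 0.20, adjusted p = 0.0136, edgeR). Atp2a3, a pump of non-muscle cells, was at the threshold (-0.32, adjusted p = 0.0352), with overlap between the groups. It did not pass with a replicate block (0.0531), with a sex term (0.0525), in the low set (0.196) or in 7 of the 9 fits that left out a library (up to 0.101). The third exchanger, Slc8a3, stood at 0.787 ± 0.452 and 0.323 ± 0.105 CPM with overlap, and its log2 fold change of -1.30 (SE 0.43) did not pass in edgeR (adjusted p = 0.0593) but did in DESeq2 (adjusted p = 0.0364). It also passed with GC and length trends removed (-1.35, adjusted p = 0.0376) and without control replicate 4 (-1.47, 0.0345), and without control replicate 3 it was -0.89 (0.14). Ryr1, the skeletal muscle release channel, had too few reads to be tested, as had Jph3. The skeletal pump Atp2a1 stood at 0.379 and 0.447 CPM on average and did not pass (adjusted p = 0.764), and the 3 inositol trisphosphate receptors did not pass.

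Of 12 regulators of the pump, 10 were tested and 0 were called in edgeR or DESeq2. Prkaca, the catalytic subunit of the kinase that relieves the block by phospholamban, was lower (log2 fold change -0.33, adjusted p = 0.00493, edgeR), from 374 ± 25.7 to 298 ± 14.7 CPM without overlap. Pde3a, a phosphodiesterase that limits the same kinase's signal, gave 0.39 (adjusted p = 0.0369) with overlap between the groups, and lost its pass in 7 of the 9 fits that left out a library (adjusted p 0.0577 to 0.0896). The other 8 did not pass in edgeR, and 3 of the 10 passed in DESeq2, Prkar1a being the third.

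None of the 6 chaperones of the endoplasmic reticulum passed in edgeR or DESeq2, 1 had an unadjusted p under 0.05 in edgeR (Pdia4), and the lowest adjusted p-values were those of Pdia4 (log2 fold change 0.20, adjusted p = 0.119) and Calr (0.12, adjusted p = 0.323), in edgeR. Pdia4 passed with a library set term (0.27, adjusted p = 0.00703). Of 9 genes of calcium extrusion and store refill 1 passed: Atp2b2, a plasma membrane pump, was called higher (1.77, SE 0.41, adjusted p = 0.0121) at 0.456 ± 0.216 and 1.56 ± 0.750 CPM, with overlap. The store sensor Stim1 did not pass (-0.14, adjusted p = 0.214), except with GC and length trends removed (-0.18, 0.0318).

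Of 5 genes of the transverse tubule and dyad 1 passed: Nexn, which ties actin to the Z-disc, was lower (log2 fold change -0.45, adjusted p = 0.00187, edgeR), from 558 ± 23.6 to 408 ± 45.7 CPM without overlap. Tcap, a titin partner, gave -0.37 (adjusted p = 0.0935), and the median of the 5 was -0.25. Tcap passed in DESeq2 (adjusted p = 0.044), with a replicate block (-0.44, 0.0105), with a library set term (-0.48, 0.0106), with GC and length trends removed (-0.62, 1.84e-05) and without cKO replicate 2 (-0.53, 0.00963). Of 8 genes of mitochondrial calcium uptake, Micu2, a gatekeeper of the uniporter, was lower (-0.40, adjusted p = 0.00313) and Letm1, an ion exchanger of the inner membrane, gave 0.29 (adjusted p = 0.0174), while the other 6, the channel Mcu among them, did not pass. Letm1, whose groups overlapped, did not pass with a replicate block (adjusted p = 0.0735), in the low set (0.448) or in 4 of the 9 fits that left out a library.

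**Figure D5:**
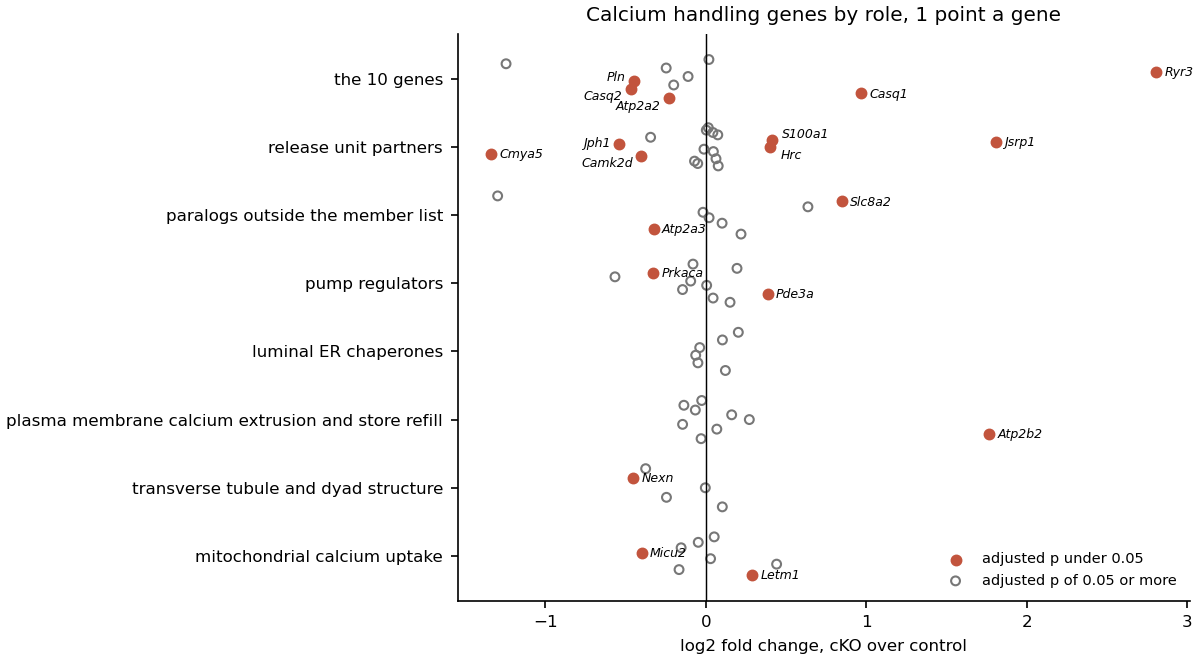
Log2 fold change, cKO over control, of the 10 genes and of the 63 other tested genes of calcium handling, 1 point a gene, by role. Filled points have an adjusted p under 0.05 and carry names. Ryr3 at 2.81 and Cmya5 at -1.34 are the ends of the filled points, and most open points lie close to 0.

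For the 2 called members the tested genes with the most similar profile over the 9 libraries were sought among 11063 genes with a mean of at least 5 CPM, by the root mean square difference of log2 CPM after centring each gene. For Ryr3 they were the keratin Krt18 (0.48), the smooth muscle protein calponin Cnn1 (0.51) and the protease Adamts20 (0.55). Krt18 rose from 6.56 ± 1.44 to 43.6 ± 13.0 CPM and Cnn1 from 4.03 ± 0.519 to 27.7 ± 9.60 CPM, and like Ryr3 Cnn1 was lowest in cKO replicate 1 among the cKO libraries, at 15.6 CPM. For Casq1 they were the matrix protein Frem2 (0.22), Tmem97 (0.23) and the enzyme Upp1 (0.24), and Frem2 rose from 71.7 ± 7.69 to 136 ± 21.3 CPM. The neighbours were selected by likeness to genes that differ between the groups, so their own differences between the groups follow from the selection.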

How the data were processed

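RNA of P7 mouse ventricles was measured in 5 control and 4 cKO libraries, grouped by their labels. Per the study's methods, stranded mRNA libraries were read single-end over 75 bases and mapped to mm10, and the submitters' processing notes name STAR 2.4.2a and HTSeq 0.6.1. Which annotation was used, and whether reads were counted by strand, is not given in the sources used here. The authors deposited raw counts per gene, not normalized, in 1 table of 38293 genes, with 0 columns of other samples.

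Symbols and coordinates came from GENCODE M21 on GRCm38, which named 36429 identifiers holding 99.82% of the counts. The other 1864 stayed in without a symbol. Counts were tested in R 4.3.3 with edgeR 4.0.16 (filterByExpr with a minimum count of 10, TMM, robust glmQLFit with genotype alone, glmQLFTest, two-sided), and the code was tested on simulated data. The study's methods name 4 controls, but its legend for these data counts 5, as the labels do, and all 5 were kept. The study gives its n as biological replicates, while the labels do not tie libraries to animals. No 2 libraries of the same group agreed within sampling noise. Ratios used log2(CPM + 0.5).

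Alternatives were DESeq2 1.42.0, other scalings and filters, a replicate block, a library set or sex term (from Rps3a3 and Xist), the low set alone, removal of GC and length trends, and leaving out each library. The members, lists and tests were chosen with earlier results of these data known. Named were all members, Arid1a, called genes of the lists (otherwise the 2 with the lowest adjusted p in each list), and 3 profile neighbours of each called member.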

Additional observations from a re-analysis of the deposited data

Results flagged for a closer look

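Log2 levels of the members and the log2 ratios were examined for a sample far from the rest of its group, in 34 groups of 4 or 5 libraries, of which chance would place about 1 in 20 past Dixon's 95% value. In 1 group a library stood apart: for the log2 ratio of Trdn to Casq2 in the controls the gap of control replicate 1 was 0.784 of the group's range. Its ratio per kb was 4.47%, against 4.68% to 4.74% in the other 4 controls, which is a small step in a narrow range and lies farther from the cKO values of 5.39% to 8.09%.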

How the results depend on the processing

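The 20 alternatives left the sign of every member's log2 fold change as reported except that of Trdn, which turned without control replicate 1 (-0.015), cKO replicate 3 (-0.0061) or cKO replicate 1 (-0.072), where leaving out 1 library gave -0.072 to 0.076. The number of genes called was 1030, with 1211 in DESeq2 and 909 to 1171 without 1 library. In the Rps3a3-low set alone, with 5 libraries, it was 620, with 1 member and 3 pathway genes (Cmya5, Prkaca and Pde3a) passing and 0 members called. With GC and length trends removed 23 pathway genes passed instead of 14. With the replicate block 888 genes were called and 4 members passed, Atp2a2 being lost (adjusted p = 0.136), as were Atp2a3 and Letm1 among the pathway genes, and Atp2a2 was also lost with a sex term (0.0782). Deviations of libraries with the same number correlated between 0.0107 and 0.232, so the numbers were not taken to pair them, and 0 of 4 cKO libraries correlated best with the control of their own number.

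When labels were exchanged only within a set, the log2 differences of 1.42 (Casq1/Casq2), 2.43 (Ryr3/Ryr2), 0.23 (Atp2a2/Pln), 0.12 (Ryr2/Atp2a2) and 0.48 (Trdn/Casq2) no longer passed (adjusted p = 0.0583 to 0.07, with 0.025 the smallest unadjusted p possible). Leaving out 1 library gave 1.28 to 1.58 for Casq1/Casq2, 2.21 to 2.91 for Ryr3/Ryr2, 0.37 to 0.57 for Trdn/Casq2, 0.17 to 0.27 for Atp2a2/Pln, 0.10 to 0.15 for Ryr2/Atp2a2, -1.25 (without cKO replicate 1) to -0.54 (without control replicate 5) for Sln/Pln and -0.15 to 0.13 for Slc8a1/Atp2a2, whose sign turned without control replicate 4 (0.05), control replicate 5 (0.08), cKO replicate 1 (0.13) or cKO replicate 2 (0.0004). Adjusted p without 1 library reached 0.0667 for Casq1/Casq2, Ryr3/Ryr2 and Trdn/Casq2, 0.15 for Atp2a2/Pln and 0.1 for Ryr2/Atp2a2, and the first 3 passed whichever cKO library was left out. Without a control they gave p = 0.0286, the smallest that an exact permutation of 4 against 4 allows, so those losses were set by the number of libraries. Counting noise bears most on Ryr3, with 34 to 71 reads a control library, and on Sln, with 34 to 333 reads a library.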

Other observations

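Differences of the members' changes between the 2 library sets and between female and male libraries, the latter told by Xist, were tested as interaction terms in edgeR, 20 tests chosen after seeing the data, and the smallest p adjusted over all genes was 0.947. The smallest unadjusted p was that of Slc8a1 between the sexes, at 0.00359 in edgeR's quasi-likelihood test (difference of log2 fold changes -0.82, SE 0.22), and the other 19 lay at 0.0905 or above. With 9 libraries, and 1 cKO library in the high set, these tests leave large differences possible.

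Marker lists of 3 further cell types were summed per library. Endothelial markers summed to 1252 to 1340 CPM in the controls and 1215 to 1300 CPM in cKO, with Tek passing lower, macrophage markers to 56.9 to 96.6 and 65.7 to 121 CPM, and erythroid markers to 483 to 929 and 732 to 1135 CPM, and 0 of 5 passed in edgeR in each of the last 2 lists (unadjusted p under 0.05: 0 and 1, DESeq2: 0 and 1).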
